A study of Mus musculus with 12 samples.

Results

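The cytotoxic granule genes of the immune panel were followed in A20 tumors injected with PBS, with GLA-SE or with SE. The set was 6 of the 770 genes on the panel, taken by symbol, with earlier results of these data known. It holds perforin (Prf1), 4 granzymes (Gzma, Gzmb, Gzmk and Gzmm) and cathepsin W (Ctsw). All 6 were among the 750 genes tested, which are the panel without its 20 reference genes. The question was whether granule transcripts differed between tumors given the TLR4 agonist in its emulsion, the emulsion alone, or neither.

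Cytotoxic T cells and NK cells store these proteins in granules that they release onto a target cell. Perforin makes pores in the target membrane, and granzymes are serine proteases that pass through them and cut proteins inside the target. Granzyme B cuts caspases and can start apoptosis, granzyme A cuts other substrates, and granzymes K and M are further members of the family. Cathepsin W is a papain-like protease of T and NK cells whose part in killing is less clear. In a tumor these transcripts are commonly read as a sign of activated cytotoxic lymphocytes.

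A20 is a mouse B cell lymphoma line, and 5000000 cells were implanted under the skin of female Balb/c mice. Injections into the tumor began about 7 days later and were given every other day, 3 in all. The GLA-SE group (n = 4, called G100 in the study's text) received 10 µg of GLA, a synthetic lipid A that activates TLR4, in 50 µl of 2% stable emulsion. The SE group (n = 4) received the emulsion without GLA, and the PBS group (n = 4) received saline. All 12 tumors came from this line and were collected 2 h after the last injection, and each tumor came from a different mouse. RNA was taken from whole tumor, so a higher count may come from more cells of a type or from more RNA per cell, and these cannot be told apart here.

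The nCounter assay counts barcoded probes for each transcript without amplification. Total counts per tumor were 812522 to 1086462 in PBS, 810260 to 1268512 in SE and 1186487 to 1612415 in GLA-SE. Values below are reference-scaled counts, which are deposited counts divided by the geometric mean of 16 reference genes in that tumor and brought back to the size of a count. Probes differ in efficiency, so levels are compared between tumors and not between genes. The geometric mean of the reference genes was lowest in SE tumor 4, at 927, against 1501 to 2806 in the other SE tumors, so counts of that tumor were scaled up most. SE tumor 4 had the highest value of its group for 552 of the 750 genes, and the members' calls and the list counts that changed without it are given both ways. B cell markers, which the lymphoma cells carry, were plentiful in every tumor. Their summed count over 8 genes was 19895 to 23283 in PBS, 14090 to 22665 in SE and 16448.5 to 19143 in GLA-SE. At this scaling every GLA-SE tumor was thus below every PBS tumor.

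Upstream sequence is shown for the members whose counts rose most after GLA-SE, Gzma, Gzmb and Prf1, with Gzmk beside them as a granzyme whose rise did not pass the test. Promoter entries in the RefSeq table (GRCm38.p6) matched 5 of the 6 members. The stretches lie directly before the annotated gene, 5′ to 3′ on the strand of the gene, and capitals mark matches to the motifs searched. They are Gzma at chr13:113100982-113101231 (minus strand), Gzmb at chr14:56262335-56262584 (minus), Prf1 at chr10:61297586-61297750 (plus) and Gzmk at chr13:113180966-113181215 (minus). Gzma and Gzmk are neighbours on chromosome 13, while Gzmb lies beside the related granzyme genes Gzmc, Gzmf and Gzmn on chromosome 14.
Gzma: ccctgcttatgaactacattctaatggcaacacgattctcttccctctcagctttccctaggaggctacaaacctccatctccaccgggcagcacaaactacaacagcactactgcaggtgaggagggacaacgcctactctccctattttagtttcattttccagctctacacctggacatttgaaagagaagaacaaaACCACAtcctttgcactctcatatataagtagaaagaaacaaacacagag
Gzmb: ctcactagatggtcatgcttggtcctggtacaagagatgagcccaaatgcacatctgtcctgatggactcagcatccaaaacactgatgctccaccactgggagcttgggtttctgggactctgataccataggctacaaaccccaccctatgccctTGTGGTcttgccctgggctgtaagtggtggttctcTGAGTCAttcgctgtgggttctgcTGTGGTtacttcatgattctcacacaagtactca
Prf1: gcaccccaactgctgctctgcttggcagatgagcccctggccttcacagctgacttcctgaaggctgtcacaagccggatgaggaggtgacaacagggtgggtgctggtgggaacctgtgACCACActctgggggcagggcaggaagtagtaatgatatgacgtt
Gzmk: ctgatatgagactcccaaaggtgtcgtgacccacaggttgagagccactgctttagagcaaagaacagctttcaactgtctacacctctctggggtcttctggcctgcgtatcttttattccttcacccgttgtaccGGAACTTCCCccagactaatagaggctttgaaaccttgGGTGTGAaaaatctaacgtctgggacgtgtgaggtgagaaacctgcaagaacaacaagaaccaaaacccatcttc

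Both strands were searched for ACCACA (RUNX), TCACACC (T-box), TGANTCA (AP-1) and TTCNNNGAA (STAT), and for an NF-kB motif. RUNX proteins and the T-box proteins T-bet and Eomes are known regulators of granule genes. The RUNX letters were found once before Gzma, Prf1 and Gzmm and in 2 places before Gzmb. They were not in the Gzmk window, which held 1 T-box match and 1 NF-kB match. An AP-1 match lay before Gzmb and a STAT match before Gzmm. Counted back from the last printed base, the RUNX match began at position -50 for Gzma, -93 and -34 for Gzmb, and -45 for Prf1. Of 32851 windows of 250 bases in the table, 14.0% held the RUNX letters, 3.33% the T-box, 6.75% the AP-1, 7.02% the STAT and 3.86% the NF-kB letters. The Prf1 stretch is shorter, at 165 bases, because the rest of its window lies inside the annotated gene. A match of letters is a description and does not show a bound site.

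After GLA-SE, perforin, granzyme A and granzyme B were called higher than after PBS under every scaling to reference genes or the panel, and with no rescaling. Scaled to the CD3, CD8 or NK genes, granzymes A and B were still called higher and perforin was not. Cathepsin W was higher with the reference genes but at -0.03 (log2) under panel median scaling, and granzymes K and M did not pass the test with the reference genes. The 4 of 6 members that rose stood against a panel in which 68.8% of genes were called (516 of 750), or 68.4% (513 of 750) when only higher genes are counted. A count of 4 of 6 is thus near the share of the whole panel. The size of the rise was less common, since 17 genes of 750 had a larger log2 fold change than Gzma, 29 than Gzmb and 62 than Prf1. The median log2 fold change was 1.64 over the 6 members and 0.90 over all genes tested. All 6 are set beside each other in the plot of counts by tumor.

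Prf1, the pore-forming protein, had a reference-scaled count of 250.2, 68.2, 108 and 215 in PBS tumors 1 to 4. In GLA-SE tumors 1 to 4 it was 511, 737, 676 and 755. The lowest GLA-SE tumor stood above the highest PBS tumor. The group means were 669 ± 111 after GLA-SE and 160.3 ± 86.1 after PBS (SD, n = 4 each), a log2 fold change of 2.06 (SE 0.39, adjusted p = 0.00211 by edgeR). SE tumors 1 to 4 had 107, 90.0, 202 and 171, which lay inside the range of the PBS tumors.

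Gzmb was counted at 205, 82.2, 134 and 156 in the PBS tumors. The corresponding values after GLA-SE were 574, 801, 1144 and 1149. No GLA-SE tumor overlapped with PBS, and the lowest was 574 against a highest PBS value of 205. The log2 fold change was 2.67 (SE 0.33, adjusted p = 0.000333 by edgeR), or 6.35-fold. Values after SE were 172, 97.1, 153 and 105, again within the PBS range. Probe sequences were not given in the sources used here, so a share of this count from Gzmc, Gzmf or Gzmn was not tested.

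Gzma showed the largest rise of the set. It stood at 225, 158, 111 and 150.2 in PBS tumors and at 799, 1342, 1088 and 2372 in GLA-SE tumors. GLA-SE tumor 4 was the highest, and all 4 were above every PBS tumor. The log2 fold change was 3.12 (SE 0.37, adjusted p = 0.000296 by edgeR), or 8.71-fold. The SE tumors were spread widely, at 211, 127, 371 and 738. SE tumors 3 and 4 were above all PBS tumors, whereas SE tumors 1 and 2 lay within their range.

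Ctsw, the cathepsin, rose less. Its counts were 182, 82.2, 102 and 163 in PBS tumors, and 286, 231, 358 and 354 in GLA-SE tumors. The 2 groups did not overlap, and the log2 fold change was 1.21 (SE 0.29, adjusted p = 0.00610 by edgeR). SE tumors had 64.6, 85.9, 153 and 321, so SE tumor 4 alone was in the range of GLA-SE and SE tumor 1 was the lowest of all 12.

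Gzmk was 71.1, 17.7, 63.6 and 74.7 in PBS, 56.1, 63.5, 119 and 142 in GLA-SE, and 21.3, 29.6, 43.6 and 48.4 in SE. GLA-SE tumors 3 and 4 were above every other tumor, while GLA-SE tumors 1 and 2 lay among the PBS tumors. The log2 fold change of GLA-SE over PBS was 0.74 with a 95% interval of -0.33 to 1.81 (adjusted p = 0.184 by edgeR). PBS tumor 2 had 19 deposited counts of Gzmk, under the threshold count of 20 in the study's methods.

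Gzmm was counted low in every tumor. Its deposited counts were 13 to 21 over all 12 tumors and under 20 in 11 of them. The variance of the 12 counts was 0.268 times their mean, so they varied less than counting noise gives. Scaled values were 12.4 to 14.9 in PBS, 14.4 to 21.5 in GLA-SE and 11.99 to 38.3 in SE. The log2 fold change of GLA-SE over PBS was 0.37 with an interval of -0.06 to 0.80 (adjusted p = 0.165 by edgeR). A difference in Gzmm was not detectable at this depth with the reference genes. Its deposited count hardly varied, so under another scaling its value follows the scale, and this holds for every call of Gzmm given further on. The highest scaled value, 38.3 in SE tumor 4, came from 19 counts and the low reference genes of that tumor.

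**Figure D1:**
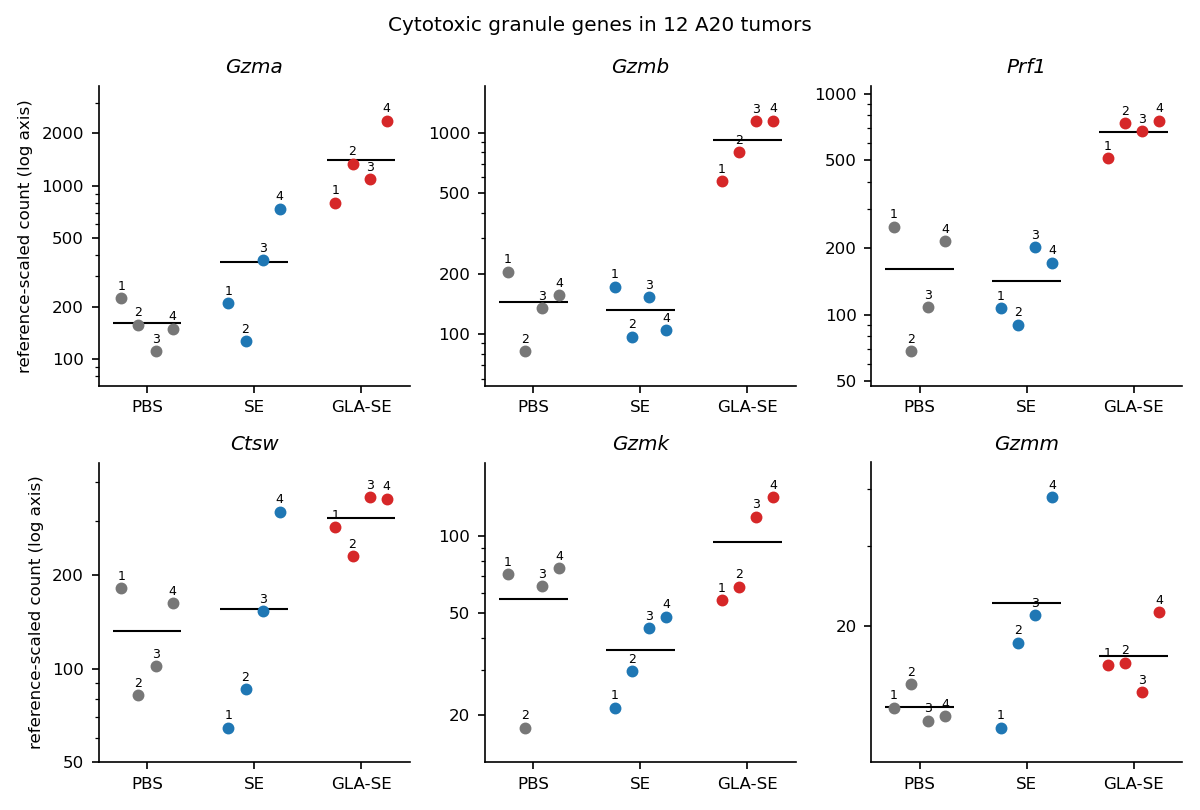
Reference-scaled count (log axis, a separate scale in each panel) of the 6 granule genes in PBS, SE and GLA-SE tumors. Points are single tumors numbered by replicate and bars are group means (n = 4). For Gzma, Gzmb, Prf1 and Ctsw every GLA-SE tumor is above every PBS tumor at this scaling, while Gzmk and Gzmm overlap.

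The exact two-sided permutation test over the 70 ways to split 8 tumors gave p = 0.0286, the smallest it can give, for Gzma, Gzmb, Prf1 and Ctsw. These are the members without overlap between GLA-SE and PBS (4 of 6), where 64.8% of all genes tested had no overlap and 63.7% had every GLA-SE tumor above every PBS tumor. Of the others, Gzmk gave an exact p of 0.286 and Gzmm 0.0571.
Without any one tumor the same 4 members were called, with log2 fold changes of 2.74 to 3.33 for Gzma, 2.48 to 2.88 for Gzmb, 1.81 to 2.36 for Prf1 and 1.04 to 1.41 for Ctsw. With each tumor scaled to the median of all tested genes, the log2 fold change was 1.89 for Gzma, 1.40 for Gzmb and 0.85 for Prf1, all still called by edgeR, while Ctsw was at -0.03 and Gzmm at -0.90, now called lower (adjusted p = 0.0226). Under that scaling the median over all genes moved from 0.90 to -0.40 on the log2 scale.

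**Figure D2:**
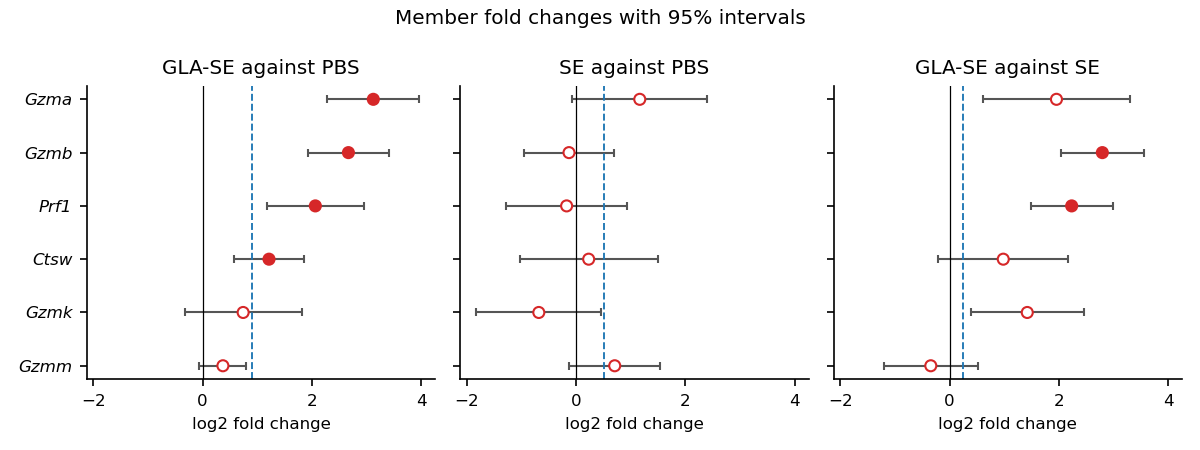
Log2 fold change (x axis) of each granule gene in 3 comparisons of 4 tumors against 4, with 95% intervals from edgeR. Filled points have an adjusted p under 0.05 over 750 genes, and the dashed line is the median log2 fold change of all genes tested, at 0.90, 0.51 and 0.25 from left to right. At this scaling Gzma, Gzmb, Prf1 and Ctsw are filled in the first panel, none in the second, and Gzmb and Prf1 in the third.

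The emulsion alone was compared with PBS on the same PBS tumors. No member was called (0 of 6), and no gene of the panel was called either (0%), although 134 of 750 genes had an unadjusted p under 0.05. DESeq2 called 12 genes with its own size factors and 53 with those of the reference genes, and none of them was a member. All 6 members overlapped between SE and PBS, where 9.2% of the panel did not and 8% had every SE tumor above. Gzma had the largest log2 fold change among the members, at 1.17 with an interval of -0.07 to 2.40 (adjusted p = 0.256 by edgeR). Without SE tumor 4 it was 0.55.
Gzmb stood at -0.13 (interval -0.96 to 0.70) and Prf1 at -0.17 (interval -1.28 to 0.93), against a panel median of 0.51. The interval of Gzmb thus leaves out a rise of the size seen after GLA-SE. Gzmk was at -0.68 (interval -1.83 to 0.46), and 744 of 750 genes had a larger log2 fold change. Ctsw was at 0.23 (interval -1.03 to 1.49) and turned to -0.39 without SE tumor 4. Gzmm was at 0.71 (interval -0.13 to 1.54), or 0.34 without SE tumor 4.

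GLA-SE against SE addresses the agonist, since both groups received the emulsion. Gzmb and Prf1 were higher after GLA-SE and passed the test, 2 of 6 members where 2.13% of the panel did (16 of 750 genes, all higher). Gzmb rose by a log2 fold change of 2.80 (SE 0.33, adjusted p = 0.00777 by edgeR), from a mean of 132 ± 36.5 to 917 ± 281 (SD, n = 4 each). Prf1 rose by 2.23 (SE 0.33, adjusted p = 0.0131 by edgeR), from 142 ± 52.9. Gzma was at 1.96 (interval 0.62 to 3.29, adjusted p = 0.136), Gzmk at 1.42 (interval 0.39 to 2.46, adjusted p = 0.156), Ctsw at 0.98 (interval -0.21 to 2.17, adjusted p = 0.364) and Gzmm at -0.34 (adjusted p = 0.722), all by edgeR.
All GLA-SE tumors were above all SE tumors for Gzma, Gzmb, Gzmk and Prf1, each with an exact two-sided permutation p of 0.0286, the smallest possible. This was 4 of 6 members, where 14.7% of all genes had every GLA-SE tumor above every SE tumor (14.8% had no overlap in either direction). For Gzma the nearest tumors were GLA-SE 1 at 799 and SE 4 at 738. For Ctsw, SE tumor 4 at 321 lay above GLA-SE tumors 1 and 2, and the exact p was 0.0857.

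Which members were called against SE depended on SE tumor 4 and on the scaling. Without SE tumor 4, Gzma (log2 fold change 2.57, adjusted p = 0.0249), Gzmb, Prf1 and Ctsw (1.60, adjusted p = 0.0322) were called by edgeR. Prf1 missed the threshold without GLA-SE tumor 2 (adjusted p = 0.0523) or GLA-SE tumor 4 (adjusted p = 0.0530), with log2 fold changes of 2.18 and 2.17. The number of panel genes called was 105 without SE tumor 4 and 4 without GLA-SE tumor 2, GLA-SE tumor 4 or SE tumor 3. Under TMM scaling only Prf1 was called (adjusted p = 0.0160; Gzmb 0.0643), and under panel median scaling none was, with Gzmb at a log2 fold change of 1.78 (adjusted p = 0.126) and Prf1 at 1.47 (adjusted p = 0.113). With no rescaling, 5 of the 6 were called, all but Gzmm, where 89 of 750 panel genes were called.

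**Figure D3:**
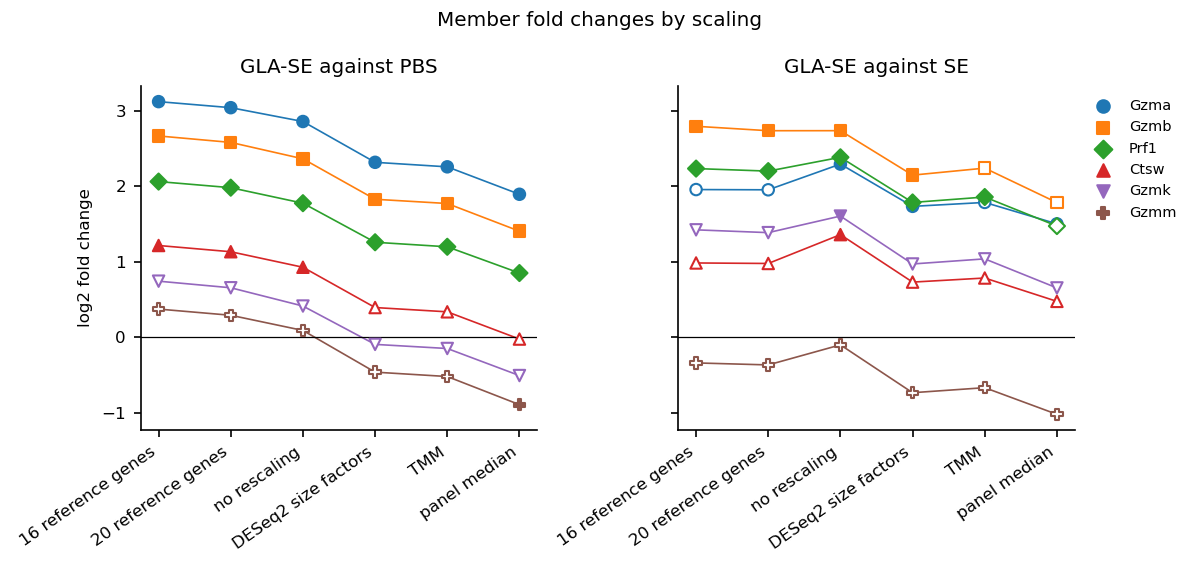
Log2 fold change (y axis) of the 6 members under 6 scalings of the counts (x axis), for GLA-SE against PBS and GLA-SE against SE. Filled symbols have an adjusted p under 0.05. Gzma, Gzmb and Prf1 stay above 0 and filled across the left panel, while Ctsw, Gzmk and Gzmm cross 0 there.

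Ratios between members within a tumor do not depend on any scaling. Of the 15 pairs of members, 10 had a count ratio that did not overlap between GLA-SE and PBS tumors, where 34.9% of all pairs of tested genes did so. A ratio to Gzmm, with its nearly constant count, mostly restates the count of the other gene, and without Gzmm it was 6 of 10 pairs. Gzmb over Ctsw was 0.956 to 1.31 in PBS tumors and 2.00 to 3.47 in GLA-SE tumors. Gzma over Ctsw was 0.922 to 1.92 in PBS and 2.79 to 6.71 in GLA-SE. Prf1 over Ctsw was 0.830 to 1.38 in PBS and 1.78 to 3.19 in GLA-SE, so perforin and granzymes A and B all stood higher over cathepsin W in every GLA-SE tumor than in any PBS tumor. Ratios among those 3, Gzma over Gzmb, Gzma over Prf1 and Gzmb over Prf1, overlapped between the groups.
Against SE, 8 of the 15 pairs did not overlap, or 3 of 10 without Gzmm (13.1% of all pairs), and between SE and PBS 0 of 15 did not (5.81% of all pairs). SE tumor 4 stood apart in its mixture. It had 366 deposited counts of Gzma and 52 of Gzmb, a ratio of 7.04, while the other 11 tumors had 0.826 to 2.42. Its Prf1 over Ctsw ratio of 0.535 was the lowest of all 12.

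Markers of the cells that carry granules were counted beside the members. Of 11 T cell markers, 7 were called higher after GLA-SE than after PBS (68.4% of the panel), with a median log2 fold change of 0.81 against 0.90 for all genes. This count was 0 under panel median scaling, TMM, no rescaling and DESeq2's size factors. It was also 0 without PBS tumor 3, 1 without GLA-SE tumor 4, 4 without GLA-SE tumor 1 or 3 and 10 at most, without PBS tumor 1. Cd3d, a chain of the T cell receptor complex, rose by 0.95 (adjusted p = 0.0301 by edgeR), and Cd8a, the co-receptor of cytotoxic T cells, was at 0.86 (adjusted p = 0.0674). The summed count of the 11 was 1211 to 3211 in PBS, 3247 to 4429 in GLA-SE and 1017 to 6760 in SE, where the highest was SE tumor 4.
Of 8 NK cell markers, 5 were called higher (0 under panel median scaling and TMM, 1 with DESeq2's size factors and 3 without PBS tumor 3), among them the activating receptor genes Ncr1 (1.66) and Klrk1 (1.36) and the CD94/NKG2 genes Klrd1 (1.32) and Klrc1 (1.44). Their summed count was 339 to 1019 in PBS and 1432 to 1651 in GLA-SE. Klrb1c, another NK marker, was at -0.26 and under 20 counts in every SE tumor. Between SE and PBS no T or NK marker was called. Between GLA-SE and SE none was called by edgeR with the reference genes, but without SE tumor 4 the count was 9 of 11 T cell and 2 of 8 NK markers, all higher, and with no rescaling 1 and 3. Of 750 panel genes, 104 were called higher without SE tumor 4 and 88 with no rescaling. Markers of other cells moved in the same tumors, with 9 of 9 monocyte and macrophage genes and 9 of 9 endothelial and fibroblast genes called higher after GLA-SE than after PBS, or 2 and 0 under panel median scaling. In SE tumor 4 the summed endothelial and fibroblast count was the highest of all, at 119914. What part these cell mixtures had in the members' values was not tested.

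To set the granule genes beside T cells, counts were refitted with the geometric mean of Cd3d, Cd3e and Cd3g in place of the reference genes. Gzma and Gzmb were then still higher after GLA-SE than after PBS, 2 of 6 members where 7.1% of the panel was called. Gzma over the CD3 genes was 0.413, 0.905, 0.365 and 0.322 in PBS tumors and 1.14, 2.39, 1.41 and 3.23 in GLA-SE tumors. Gzmb over the CD3 genes was 0.376, 0.471, 0.442 and 0.334 against 0.817, 1.42, 1.48 and 1.57. Neither ratio overlapped between the 2 groups. How many panel genes had no overlap in their ratio to the CD3 genes was not counted. The log2 fold change relative to the CD3 genes was 2.04 (SE 0.45, adjusted p = 0.00149 by edgeR) for Gzma and 1.71 (SE 0.42, adjusted p = 0.00560) for Gzmb.
Prf1 over the CD3 genes was 0.355 to 0.460 in PBS tumors and 0.727 to 1.31 in GLA-SE tumors. Its log2 fold change of 1.24 just missed the threshold (adjusted p = 0.0516 by edgeR), and passed it without PBS tumor 1 (adjusted p = 0.0422) or PBS tumor 2 (adjusted p = 0.0326). Ctsw over the CD3 genes was 0.334 to 0.471 in PBS and 0.408 to 0.482 in GLA-SE, a relative log2 fold change of 0.25 (SE 0.41, adjusted p = 0.745). Gzmk and Gzmm were at -0.16 and -0.72 and were not called.

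**Figure D4:**
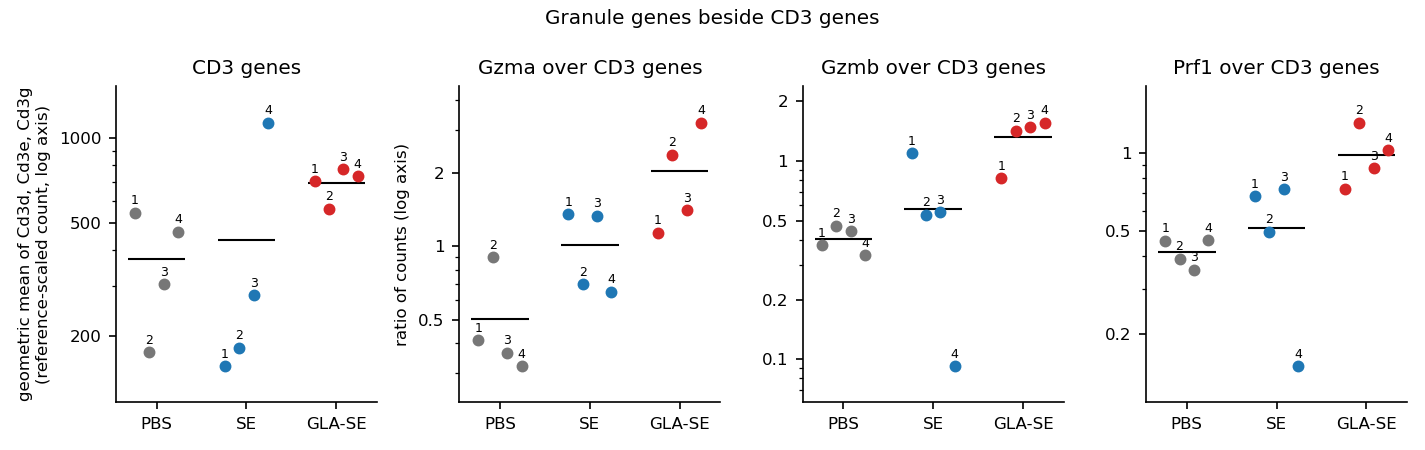
Geometric mean of 3 CD3 genes (left, reference-scaled count) and the ratio of Gzma, Gzmb and Prf1 counts to it (log axes) in single tumors numbered by replicate, with bars at group means (n = 4). The CD3 level of SE tumor 4 is the highest of all 12, and its Gzmb and Prf1 ratios are the lowest.

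Scaled to Cd8a and Cd8b1, Gzma (log2 fold change 2.01, adjusted p = 0.00155 by edgeR) and Gzmb (1.72, adjusted p = 0.00771) were again the 2 members called higher after GLA-SE than after PBS, with 5.08% of the panel called. Gzmb missed the threshold without GLA-SE tumor 3 (adjusted p = 0.0549), and Prf1 (1.27, adjusted p = 0.0715) passed it without PBS tumor 2 (adjusted p = 0.0337).
Scaled to 4 NK genes (Ncr1, Klrd1, Klrk1 and Klrc1), 42.1% of the panel was called, mostly lower. Gzma (1.52) and Gzmb (1.13) were called higher and Gzmm (-1.27) lower, and without PBS tumor 2 only Gzma of the 6 was called. Prf1 was at 0.63 (adjusted p = 0.157).
Between GLA-SE and SE no member was called relative to the CD3 genes (0 of 6, with 2.28% of the panel called). Gzmb was at 1.22 (adjusted p = 0.114) and Prf1 at 0.94 (adjusted p = 0.154), and without SE tumor 4 the 1 member called was Gzmm, lower (-1.74). In that fit 434 of 747 panel genes were called, 427 of them lower. Relative to the CD8 genes only Gzmm was called, lower, at 13 to 21 counts (3.61% of the panel). Gzmm was no longer called without any one GLA-SE tumor or without SE tumor 1, 2 or 3. Without SE tumor 1 the 1 member called was Gzmb, where 43 of 748 panel genes were called, 5 of them higher. Relative to the NK genes Gzmb and Prf1 were called higher and Gzmm lower (41.4% of the panel was called, 8 genes higher and 301 lower). No member and no panel gene was called without GLA-SE tumor 1, 2 or 4. Without SE tumor 2 it was 1 member, where 138 of 746 panel genes were called. Between SE and PBS no member was called under any of the 3 scalings, where 3.35%, 4.68% and 0% of the panel was called.

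Genes known to act upstream of the granule program were read from fixed lists. Their counts are from whole tumor, lymphoma cells included, and which cells carried them was not tested. Of 12 transcription factors known in cytotoxic cells, 10 were called higher after GLA-SE than after PBS, or 8 to 10 without single tumors. Their median log2 fold change was 0.87. Prdm1, which encodes Blimp-1, rose by 2.02 (adjusted p = 0.000345 by edgeR) and Tbx21, which encodes T-bet, rose by 1.18 (adjusted p = 0.0110). Stat4, which carries the IL-12 signal, rose by 1.35 and Runx3 by 0.89. Eomes, the T-box partner of T-bet, was at 0.56 (adjusted p = 0.166) and Batf at 0.28 (adjusted p = 0.177).
All 11 genes of the receptors for the cytokines that induce granule genes were called higher, from Il21r at 0.54 to Il2ra at 2.27, with a median of 1.39. Il2rb, the chain shared by the IL-2 and IL-15 receptors, rose by 1.69 and Il12rb2 by 2.21. Among the 8 inducing cytokines 6 were called higher, with a median of 1.31. Without GLA-SE tumor 3 it was 3 of 8 and a median of 0.57. The count was also 3 of 8 without PBS tumor 2, 3 or 4, and 4 of 8 without PBS tumor 1, with medians of 1.23 to 1.46. Il15 rose by 1.60 and Il18 by 1.72. Il12b rose by 2.66 with a standard error of 1.00, and was at 0.47 (adjusted p = 0.200 by edgeR) without GLA-SE tumor 3. Without any one PBS tumor Il12b was at 2.51 to 2.95 and was not called (adjusted p of 0.0579 to 0.0948 by edgeR). Il2 at 0.32 and Ifnb1 at 0.11 were not called. Ifnb1 was under 20 counts in every PBS and GLA-SE tumor, and Il2 in 3 of 4 tumors of each group, so low counts limit both. The panel background for these counts is the 68.4% called higher. Under panel median scaling 1 transcription factor, 1 receptor and 0 cytokines were called higher, and 3, 2 and 3 lower.

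Effectors that cytotoxic cells also secrete, or that kill by another route, were mixed. Of 5 secreted effectors 4 were called higher after GLA-SE than after PBS, where 68.4% of the panel was. Interferon gamma (Ifng) rose by 1.34 (adjusted p = 0.00602 by edgeR), whereas Xcl1 was at 0.35. Ccl5 rose by 3.33 (adjusted p = 0.00402), with 1619 to 14404 in GLA-SE tumors, and by 2.16 (adjusted p = 0.000614) without GLA-SE tumor 3. Among 7 death ligands and receptors 4 were called. Tnfsf10, the ligand TRAIL, rose by 1.31 and Fas by 1.08, and Fas ligand (Fasl), which cytotoxic cells also use to kill, was at 0.88 (adjusted p = 0.0541).
Of 5 genes that carry out cell death, 2 were called higher after GLA-SE than after PBS whichever tumor was left out. Of the 750 panel genes, 440 to 501 were called higher in those fits. RNA came from whole tumor, so these counts cannot be placed in target cells. Casp8, an initiator caspase, rose by 0.44. Bid, a granzyme B substrate, was at -0.07, Bax at -0.05 and Fadd at 0.20, and these 3 were not called. Of 7 other granule or lysosomal proteases 5 were called higher. Ctsl (1.77), Ctss (1.45) and Ctsh (0.56) are lysosomal cathepsins, and Cma1 (1.30) and Tpsab1 (1.00) are proteases of mast cell granules. Ctsg and Elane, proteases of neutrophil granules, were at 0.42 and 0.16 and were not called. Both were under 20 counts in every GLA-SE tumor, and in PBS Ctsg was in 4 of 4 tumors and Elane in 3 of 4. The shares of the death ligands and receptors and of these proteases are near the panel's 68.4%. Under panel median scaling 1 effector, 0 death ligands and receptors and 1 protease were called higher, and 1, 2 and 3 lower.
Between GLA-SE and SE no gene of these lists was called by edgeR with the reference genes. Without SE tumor 4, however, 6 of 12 transcription factors, 6 of 11 cytokine receptors and 1 of 7 death ligands and receptors were called higher. With no rescaling it was 3 transcription factors, 4 receptors and 1 effector, and DESeq2 with the reference genes called 4, 4 and 2. Of the 750 panel genes, 104, 88 and 110 were called higher in these fits, in that order. Between SE and PBS edgeR called no gene of these lists under any scaling to reference genes or the panel, with no rescaling, or without any one tumor. DESeq2 called Xcl1 lower with its own size factors, and Lta lower and Cma1 and Il18 higher with the reference genes. The lists were not read in the fits scaled to the CD3, CD8 or NK genes.
The median log2 fold change between GLA-SE and SE was -0.06 for the other proteases (0.54 without SE tumor 4) and 1.00 for the secreted effectors (1.16). Beside these stood 1.69 for the members (1.97 without that tumor) and 0.25 for all genes (0.63). The scaling moved these lists as it moved the panel. With the panel median as scale, the median for GLA-SE against PBS was -0.43 for the transcription factors, 0.08 for the cytokine receptors and 0.41 for the members.

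The genes whose counts followed each member most closely over the 12 tumors differed between members. Prf1 was nearest to Lag3, an inhibitory receptor of activated lymphocytes, with a Pearson r of 0.99 between log2 values, and to Klrk1 at 0.97. Among the genes close to Gzmb were Itgal, an integrin chain of leukocytes, and Clec4n, both at 0.97. Gzma was nearest to Clec5a at 0.96, then Bst1 and Tnfrsf14.
Gzmk was nearest to Eomes at 0.97, then Sh2d1a (0.89) and Tigit (0.87). Ctsw was nearest to Spn at 0.99, with Il18r1, Zap70, Il2rb and Cd3g at 0.96 to 0.98. Gzmm followed Nfatc4 at 0.95, on counts of 13 to 21. After the group means were removed, r was 0.95 for Prf1 and Lag3, 0.95 for Gzmk and Eomes and 0.98 for Ctsw and Spn. It fell to 0.87 for Gzma and Clec5a and to 0.75 for Gzmb and Itgal.
Lag3 was counted at 115 to 259 in PBS tumors, 145 to 223 in SE tumors and 384 to 413 in GLA-SE tumors. Eomes was 42.0 to 124 in PBS, 56.2 to 90.8 in SE and 110.3 to 177 in GLA-SE. Whether Eomes and Tbx21 differed in their rise was not tested. Genes of 1 tumor share its RNA and its scaling, so these values are descriptions over 12 tumors in 3 groups, with no test.

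**Figure D5:**
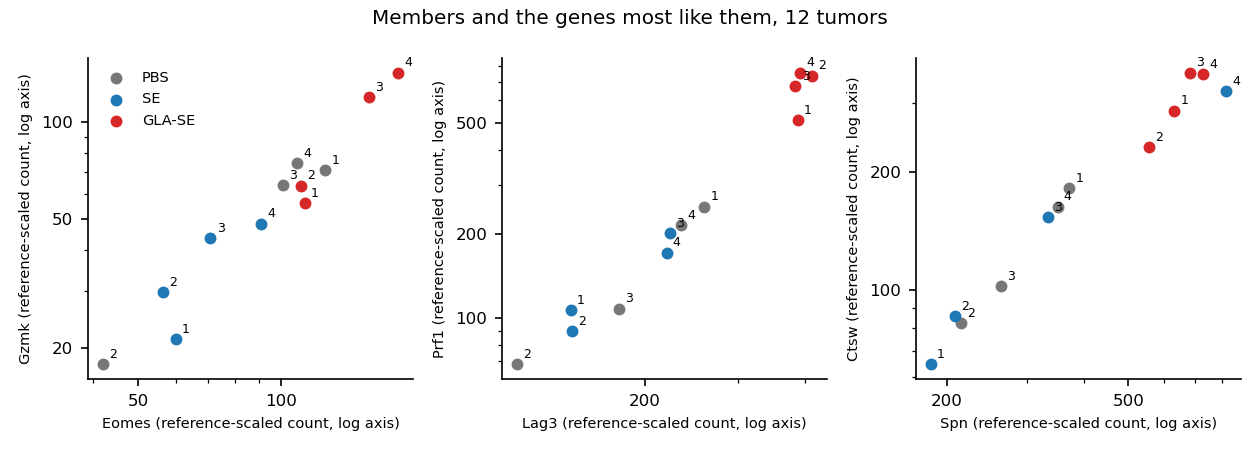
Reference-scaled counts (log axes) of Gzmk against Eomes, Prf1 against Lag3 and Ctsw against Spn in 12 tumors, coloured by group and numbered by replicate. The pairs rise together, with GLA-SE tumors at the upper end for Prf1, and SE tumor 4 among the GLA-SE tumors for Ctsw.

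Among the members themselves, Gzmb and Prf1 were most alike over the 12 tumors (r = 0.94), and Gzma and Gzmb had r = 0.84. With group means removed these were 0.68 and 0.28, while Gzmk and Prf1 had 0.77 and Gzma and Ctsw 0.74. PBS tumor 2 had the lowest value of its group for 4 of the 6 members and for 277 of the 750 genes tested. SE tumor 4 had the highest of its group for 4 of the 6, and GLA-SE tumor 3, the highest of its group for 437 genes, was highest for 1 member and lowest for another.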

How the data were processed

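The authors deposited 1 table of nCounter counts (mouse PanCancer Immune Profiling Panel, 770 genes) for 12 tumors, 4 per group by the labels. The study normalized its data in nSolver. The deposited counts are whole and sum to 810260 to 1612415 per tumor, so they were used as raw counts. The assay involves no alignment.

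geNorm kept 16 of 20 reference genes over all 12 tumors (Alas1, Eef1g, G6pdx and Gusb were dropped), so that a tumor has 1 value in every comparison. Pairs of groups (8 tumors) were compared by edgeR's quasi-likelihood test (edgeR 4.0.16, R 4.3.3), without a filter or covariates, with Benjamini-Hochberg adjustment over 750 genes and a threshold of 0.05. The study's methods drop genes under 20 counts, which was an alternative here. Exact permutation tests used log2(reference-scaled count + 1). Each fit was tested on simulated data. Alternatives were the filter, all reference genes, selection per comparison, panel median, TMM or no scaling, DESeq2 1.42.0, limma 3.58.1 with a pseudocount of 1 or 10, all 12 tumors in one fit, a replicate block and leaving out each tumor. Intervals are 95%. Figures were drawn with matplotlib 3.10.9.

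The members, the lists and the tests were chosen with earlier results of these data known. Named were all members, the genes of the lists and, for each member, the 5 genes with the highest r. Some of these genes are not reported here. Counts limit Gzmm most. Counting intervals aside, precision rests on 4 tumors a group.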

Additional observations from a re-analysis of the deposited data

How the results depend on the processing

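The 4 members called between GLA-SE and PBS were called without any one tumor (4 to 4). Scaling bore on Ctsw, Gzmk and Gzmm. In that comparison Gzmk was at -0.51, -0.15 and -0.10 and Gzmm at -0.90, -0.52 and -0.46 under panel median scaling, TMM and DESeq2's size factors, and Ctsw at -0.026 under the panel median. The exact test's differences of mean log2 values there were -0.45 for Gzmk, -0.86 for Gzmm and -0.023 for Ctsw under the panel median. The genes called were 316 under TMM (148 higher, 168 lower), 368 under the panel median (61 higher, 307 lower), 346 by DESeq2 (193 higher, 153 lower), 255 with all 12 tumors in one fit and 443 to 504 without single tumors. The all-tumor fit left 3 members (Ctsw at an adjusted p of 0.0645), as did TMM and DESeq2.

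Between SE and PBS no setting called a member. Scaled to reference genes or the panel, or with no rescaling, edgeR called no gene, while DESeq2 called 12 and 53 genes. Scaled to the CD3, CD8 and NK genes, edgeR called 25, 35 and 0 genes. Ctsw turned to -0.50, -0.41, -0.43 and -0.38 under panel median, TMM, no rescaling and DESeq2's size factors, with exact-test differences of -0.48 and -0.40 under panel median and no rescaling. Leaving out single tumors gave -0.39 to 0.49 for Ctsw, -0.32 to 0.09 for Gzmb (0.087 without PBS tumor 1) and -0.42 to 0.13 for Prf1 (0.13 without PBS tumor 1 and 0.0011 without PBS tumor 4).

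Between GLA-SE and SE the members called were 0 under panel median scaling, 1 under TMM, 5 with no rescaling, 3 by DESeq2 with its own size factors and 4 with the reference genes, and 1 to 4 without single tumors. The genes called were 0, 3, 89, 80 and 118, 79 with all 12 tumors in one fit, and 4 to 105 without single tumors. Gzmm was at -0.56 to 0.02 without single tumors (0.023 without SE tumor 4). Without single tumors, members called relative to the CD3, CD8 and NK genes were 2 to 3, 1 to 3 and 1 to 4 for GLA-SE against PBS, and 0 to 1, 0 to 1 and 0 to 4 for GLA-SE against SE. Panel genes called in those fits were 11 to 109, 10 to 59 and 187 to 380 for GLA-SE against PBS. Against SE they were 0 to 434, 1 to 333 and 0 to 319. The cause of these shifts was not tested.

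Pairing of tumors by replicate number was not shown, since deviations of same-numbered tumors correlated at -0.25 to 0.18. Such correlations cannot tell whether same-numbered mice were handled together. With the replicate block, 439 genes and 4 members were called for GLA-SE against PBS, 0 for SE against PBS and 0 genes and 0 members for GLA-SE against SE, where 132 genes had an unadjusted p under 0.05, Gzmb was at 2.79 (adjusted p = 0.0890) and Prf1 at 2.29 (adjusted p = 0.0977).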
